A study of Mus musculus with 52 samples.

Results

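The comparison described here is that of cerebral cortex from mice that carry mutant human PFN1 and received an AAV encoding an artificial microRNA (amiR) against Atxn2, set against cortex from the same transgenic line given vehicle. Libraries were assigned by their titles, which gave 6 amiR libraries and 6 vehicle libraries among the 52 libraries of the series. The amiR arm (PFN1_C71G, amiR_ATXN2) held 3 females and 3 males, of which 4 mice were 36 weeks old, 1 was 38 weeks and 1 was 39 weeks. The vehicle arm (PFN1_C71G, Vehicle) also held 3 females and 3 males, with 4 mice of 36 weeks and 2 of 39 weeks. Both arms share the C71G transgene, and cortex from 5 wild-type FVB mice given vehicle, 2 females and 3 males of 36 weeks, is cited where a normal level is useful. Spinal cord and muscle of the same 2 transgenic arms, from females and males, are cited for comparison. In spinal cord, vehicle libraries 2 and 3 were from 39 weeks, amiR library 2 from 38 and amiR library 3 from 39. In muscle, vehicle library 2 was from 39 weeks, amiR library 2 from 38 and amiR library 3 from 39. Their other libraries were from 36 weeks. No arm received a virus without the amiR, so effects of the amiR and of the virus itself cannot be told apart. The labels name neither the promoter of the transgene nor the dose, route or age of injection, and they do not say which tissues came from the same mouse. The labels give each library its own sample but no animal numbers, so each p-value measures the spread between libraries of different labelled samples.

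Profilin-1, the product of PFN1, binds actin monomers and feeds them to growing filaments, and its C71G form causes familial amyotrophic lateral sclerosis (ALS). Ataxin-2, the product of Atxn2, is a cytoplasmic RNA-binding protein of stress granules and of mRNA decay, and intermediate repeat expansions in the human gene raise the risk of ALS. An artificial microRNA is made from a hairpin in the vector transcript, enters Argonaute like a natural microRNA and lowers the mRNAs it pairs with. The cortex holds the upper motor neurons affected in ALS, along with many other neurons, astrocytes, oligodendrocytes, microglia and vessels. In such bulk tissue, fewer cells of a type and less RNA per cell cannot be told apart.

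Poly(A) RNA was counted per gene. Total counts were 67793880 to 90454892 in amiR libraries, 67956658 to 79100207 in vehicle libraries and 67496573 to 79410793 in wild-type libraries. RNA integrity numbers were 7.7 to 8.3 with the amiR, 7.7 to 8.2 with vehicle and 7.3 to 7.9 in wild type. The sex read from the transcripts matched the label in all 17 cortex libraries, and no cortex library had conflicting names. The defining markers of cortical neurons were plentiful, Slc17a7 for example averaging 1272 CPM (counts scaled to library size, after TMM scaling unless stated otherwise) with the amiR and 1012 CPM with vehicle. Markers of neighbouring brain regions varied between libraries. Summed CPM of 10 thalamic neuron markers was 79.9 to 151 in amiR libraries and 99.2 to 125 in vehicle libraries 1 to 4, but 532 in vehicle library 5 and 355 in vehicle library 6, and 96.5 to 214 in wild type. The 12 choroid plexus markers summed to between 14.8 and 516 CPM with the amiR and 27.8 and 577 CPM with vehicle. On the first 2 principal components of the 12 transgenic libraries, with 24.1% and 16% of the variance, the arms overlapped.

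The vector was detected in every amiR library. The sense strand of WPRE, a post-transcriptional element at the end of the vector transcript, had 28.9, 27.5, 30.5, 64.7, 46.5 and 52.4 CPM (unscaled) in amiR libraries 1 to 6, from 2096 to 5852 counts. In the 6 vehicle libraries together it had 1 count, and in the 5 wild-type libraries none. The hairpin scaffold miRE averaged 9.39 ± 3.46 CPM with the amiR (SD, n = 6), against 1 count over the 6 vehicle libraries.

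Atxn2, the target, was lower with the amiR than with vehicle in a test of the gene by itself, and missed the threshold in the model across all genes. Atxn2 had 81.7, 75.3, 91.7, 89.1, 72.6 and 91.6 CPM in amiR libraries 1 to 6, against 109, 96.8, 107, 109, 86.4 and 98.4 CPM in vehicle libraries 1 to 6. All 6 amiR libraries were below the vehicle mean, but the groups overlapped, since vehicle library 5 lay below 3 of the amiR libraries. On the log2 scale of unscaled CPM plus 0.5, Atxn2 fell by 0.3 (18.8% in the means), with a two-sided exact permutation p of 0.00433 against a smallest possible 0.00216, and 0.013 adjusted over the 3 genes so tested. In edgeR's model across all genes its log2 fold change was −0.27 ± 0.07 (SE), with a 95% interval from −0.43 to −0.12 and an adjusted p of 0.187, which misses the 0.05 threshold. Wild-type cortex had 104 ± 5.89 CPM (SD, n = 5).

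The transgene and its mouse counterpart did not pass that test. Human PFN1 averaged 1225 ± 234 CPM with the amiR and 1026 ± 182 CPM with vehicle (unscaled, SD, n = 6 each; exact permutation p = 0.13, adjusted 0.195). Mouse Pfn1 averaged 84.1 ± 13.8 CPM with the amiR and 81.0 ± 7.2 CPM with vehicle (exact permutation p = 0.647, adjusted 0.647). Thy1 and Prnp were far above wild type in both transgenic arms: Thy1 averaged 1859 CPM with the amiR, 1537 CPM with vehicle and 354 CPM in wild type, and Prnp averaged 3279 CPM, 2966 CPM and 645 CPM in the same order. Among the 6 amiR libraries, more WPRE did not go with less Atxn2: Pearson's r of the log2 levels was 0.418 (exact permutation p = 0.375, adjusted over 4 relations 0.575) and Spearman's rho was 0.6 (exact permutation p = 0.242, adjusted 0.396). Without the 2 libraries farthest from the median WPRE level, r was −0.568, so the sign with WPRE rests on those libraries. With miRE in place of WPRE, r was 0.509 (exact permutation p = 0.281, adjusted 0.575), and 0.449 without the 2 libraries farthest in miRE.

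**Figure D1:**
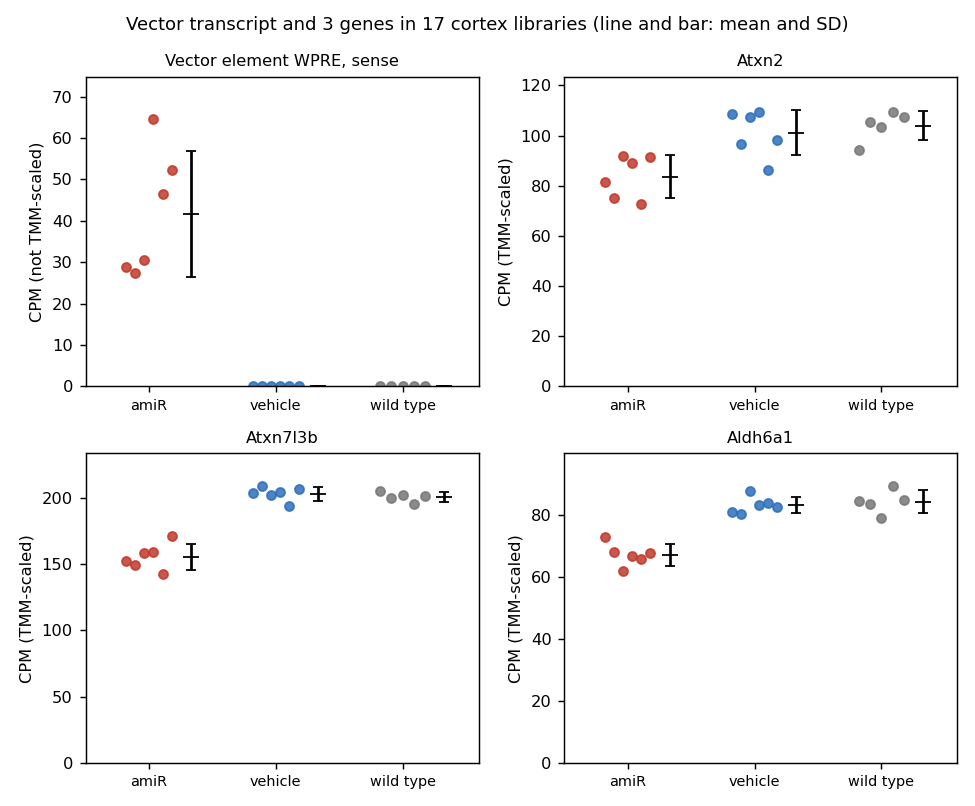
Levels in each cortex library (points) of the vector element WPRE, Atxn2, Atxn7l3b and Aldh6a1, in CPM on linear axes, for amiR (6), vehicle (6) and wild type (5), with the mean and SD beside the points. WPRE is present in amiR libraries only apart from 1 vehicle count, Atxn2 overlaps between amiR and vehicle, and Atxn7l3b and Aldh6a1 do not.

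Across the transcriptome, few genes separated the arms. Of 20278 genes tested with edgeR's quasi-likelihood test, 4 passed an adjusted p of 0.05 (0.0197%), namely Cxcl9 and Ighg2b, which rose, and Atxn7l3b and Aldh6a1, which fell. Cxcl9 and Ighg2b passed the filter on low counts through the amiR libraries, where they are high. At an unadjusted p under 0.05, 1283 genes were higher with the amiR (6.33%) and 1019 were lower (5.03%). The amiR and vehicle libraries did not overlap for 68 genes that were higher (0.335%) and 46 that were lower (0.227%). The median log2 fold change of all genes was −0.009. The count of 4 depends on the settings: fitting the 12 transgenic libraries without wild type gave 0 calls, with 1714 genes at an unadjusted p under 0.05, DESeq2's Wald test gave 364, and leaving out vehicle library 3 gave 80. It was 2 without vehicle library 4, vehicle library 6 or amiR library 5, and 1 without amiR library 3, 4 or 6. Precision was not the same at all levels. The 95% interval of the fold change stayed within 2-fold for 96.4% of the 15028 genes averaging 1 CPM or more, and for 59.8% of the 5250 below that level.

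Atxn7l3b had the smallest adjusted p in the cortex. It lies on the minus strand of chromosome 10 (GRCm38, 112925430 to 112929001) and encodes a cytoplasmic relative of ATXN7L3 that competes for ENY2, an adaptor of the histone deubiquitinase of the SAGA complex. Despite its name it belongs to another family than Atxn2. Its level was 153, 149, 159, 159, 143 and 171 CPM in amiR libraries 1 to 6, against 204, 209, 202, 204, 194 and 207 CPM in vehicle libraries 1 to 6. The groups did not overlap, and the 5 wild-type libraries, at 196 to 206 CPM, lay within the vehicle range. The log2 fold change was −0.39 ± 0.04 (SE, 95% interval −0.48 to −0.29, adjusted p = 0.00301), and Atxn7l3b stayed below the threshold when any of the 12 libraries was left out (adjusted p 0.000723 to 0.0159). Fitted without wild type it had the same fold change (−0.38) with an adjusted p of 0.185.

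Its decrease was not limited to the cortex. In spinal cord, Atxn7l3b had 121 ± 4.15 CPM with the amiR and 175 ± 4.57 CPM with vehicle (SD, n = 6 each), a log2 fold change of −0.54 ± 0.03 (adjusted p = 8.14e-08). Atxn2 changed there by −0.55 ± 0.03, with 72.5 ± 0.859 CPM for the amiR and 106 ± 2.71 CPM for vehicle (adjusted p = 8.14e-08). Samples were grouped by title there too, although 4 of the 18 spinal cord libraries have a library name of the other treatment. The Atxn2 levels of those 4 went with their titles: 103.9 and 105.8 CPM in vehicle libraries 5 and 6, and 72.6 and 72.8 CPM in amiR libraries 1 and 2. The spinal cord fit called 1037 of 20307 genes (5.11%). In edgeR's interaction test, the cortex change minus the spinal cord change was 0.16 ± 0.05 for Atxn7l3b (unadjusted p = 0.00525, adjusted p = 0.196). For Atxn2 it was 0.28 ± 0.08 (unadjusted p = 0.00132, adjusted p = 0.123). Neither difference between the tissues passed after adjustment over all genes tested, although both decreases were smaller in cortex. In muscle, Atxn7l3b had 17.9 ± 1.01 CPM for the amiR (n = 6) and 19.1 ± 0.832 CPM for vehicle (n = 5), a log2 fold change of −0.10 ± 0.06 (adjusted p = 0.361). The cortex minus muscle difference was −0.29 ± 0.07 for Atxn7l3b (adjusted p = 0.0362), 1 of 190 genes called of 21231 (0.895%) in that test, which was added after these values were seen. For Atxn2 the same difference was −0.31 ± 0.10 (adjusted p = 0.115). Atxn2 itself was not lower in muscle, with 60.4 ± 5.72 CPM for the amiR and 59.1 ± 2.72 CPM for vehicle (log2 0.04 ± 0.06, adjusted p = 0.757). Within the 6 amiR cortex libraries, log2 Atxn7l3b and log2 WPRE had r = 0.358 (exact permutation p = 0.506, adjusted 0.575) and rho = 0.6 (exact permutation p = 0.242, adjusted 0.396), and r was −0.719 without the 2 farthest libraries.

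Aldh6a1, the mitochondrial methylmalonate-semialdehyde dehydrogenase of valine breakdown, lies on chromosome 12 (minus strand, 84430717 to 84451004). It had 72.8, 68.0, 61.9, 66.8, 65.9 and 67.8 CPM in amiR libraries 1 to 6, against 81.2, 80.3, 87.6, 83.2, 83.8 and 82.5 CPM in vehicle libraries 1 to 6. No amiR library reached the vehicle range, and wild type had 84.3 ± 3.71 CPM (SD, n = 5). Aldh6a1 fell by 0.31 on the log2 scale, with an SE of 0.04 (adjusted p = 0.0188). The call was lost without vehicle library 4 or 6 or without amiR library 3, 4, 5 or 6 (adjusted p up to 0.0783). In spinal cord its log2 fold change was −0.07 ± 0.07 (adjusted p = 0.593), but the difference between the tissues did not pass (adjusted p = 0.248). Dbt, a subunit of the branched-chain ketoacid dehydrogenase that acts earlier in the same pathway, also had non-overlapping groups, averaging 17.9 CPM with the amiR and 20.5 CPM with vehicle (log2 −0.20 ± 0.04, adjusted p = 0.131).

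The 2 called genes that rose are immune genes of very low level, and both passed the filter on low counts through the amiR libraries, where they are high. With no filter, the adjusted p was 0.0067 for each. Cxcl9 (chromosome 5, 92321347 to 92328079, minus strand) encodes a chemokine that interferon gamma induces and that draws activated T cells through CXCR3. It had 13, 50, 39, 33, 8 and 15 counts in amiR libraries 1 to 6 (0.116 to 0.622 CPM), against 2, 3, 0, 1, 0 and 2 counts in vehicle libraries 1 to 6. The groups did not overlap, and the 5 wild-type libraries had at most 0.0133 CPM. The fitted log2 fold change of Cxcl9 was 4.11 ± 0.54 (adjusted p = 0.00975), a size that depends on the few vehicle counts. Cxcl9 no longer entered the test when any of amiR libraries 1, 2, 3, 4 and 6 was left out, because it then failed the filter on low counts. In spinal cord Cxcl9 rose too, to 1.05 ± 0.833 CPM with the amiR against 0.177 ± 0.176 CPM with vehicle (log2 2.6 ± 0.73, adjusted p = 0.0479).

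Of the 15 chemokine genes listed, 14 entered the test (Ccl4 did not), 4 were higher, Cxcl9 among them, and 1 was lower at an unadjusted p under 0.05, and their median log2 fold change was 0.77, against −0.009 over all genes. That median was 0.05 without the mice older than 36 weeks, and 0.05 over the 5 chemokine genes of 1 CPM or more. Over all genes, 6.33% were higher and 5.03% lower at that unadjusted level, and each list count stands beside those shares. Ccl8, a monocyte chemoattractant, averaged 0.593 CPM with the amiR and 0.146 CPM with vehicle (log2 2.01 ± 0.40, adjusted p = 0.131). Cxcl10, another interferon-induced ligand of CXCR3, averaged 0.423 CPM with the amiR and 0.145 CPM with vehicle (log2 1.36 ± 0.46, adjusted p = 0.269). Cxcl12, a chemokine made constitutively in brain, went the other way, with 64.9 to 95.8 CPM over the amiR libraries and 104 to 139 CPM over the vehicle libraries, which did not overlap (log2 −0.50 ± 0.10, adjusted p = 0.122).

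Of the immunoglobulin genes, Ighg2b was called. Ighg2b, the constant region of IgG2b heavy chain (chromosome 12, 113302965 to 113307933, minus strand), had 0.62, 5.05, 1.48, 0.548, 0.64 and 0.474 CPM in amiR libraries 1 to 6, against 0.0537, 0.111, 0.144, 0.0529, 0.109 and 0.012 CPM in vehicle libraries 1 to 6. Every amiR library lay above every vehicle library, and amiR library 2 lay far above the other amiR libraries. The vehicle values rest on 1 to 10 counts per library, so Ighg2b entered the test through the amiR libraries. Its log2 fold change was 3.98 ± 0.59 (adjusted p = 0.0208), a size that depends on those few counts. Igkc, the constant region of kappa light chain, had 1.97, 17.2, 4.18, 1.63, 1.64 and 2.57 CPM in amiR libraries 1 to 6, against 0.242, 0.29, 0.389, 0.132, 0.945 and 0.299 CPM in vehicle libraries 1 to 6. Those groups did not overlap either (log2 3.46 ± 0.65, adjusted p = 0.095). Without amiR library 2, Ighg2b had 3.24 (adjusted p = 0.0104) and Igkc 2.64 (adjusted p = 0.0406). Igkc also passed without vehicle library 5 (adjusted p = 0.0339). The call of Ighg2b was lost without vehicle library 1, 2, 4 or 6 or without amiR library 3, 4, 5 or 6 (adjusted p up to 0.104). Constant-region genes resemble each other, so the split of counts among Ighg1, Ighg2b and Ighg2c is uncertain.

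Cd79a, a signalling chain of the B cell receptor, averaged 0.366 CPM with the amiR and 0.441 CPM with vehicle (log2 −0.26 ± 0.36, adjusted p = 0.844). Jchain, which joins polymeric antibodies, averaged 1.67 CPM with the amiR and 0.884 CPM with vehicle (log2 0.89 ± 0.27, adjusted p = 0.237). Of 14 B and plasma cell genes listed, 10 entered the test, among them 1 called and 5 higher at an unadjusted p under 0.05, with a median of 0.98, or 0.13 in males only. Ighg3, Iglc1, Iglc2 and Ms4a1 did not enter, while Ighg2b entered through the amiR libraries, so that median is no test of the list. The 6 blood genes, haemoglobins among them, summed to 227 to 430 CPM with the amiR and 221 to 430 CPM with vehicle, and the part of blood in the immunoglobulin counts was not tested. In spinal cord, Ighg2b averaged 0.352 ± 0.264 CPM with the amiR and 0.344 ± 0.421 CPM with vehicle (adjusted p = 0.648), and the difference between the tissues did not pass (adjusted p = 0.375).

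T cell markers were close to the limit of counting. Of 20 T and NK cell genes, 12 entered the test, while the other 8, Cd8a, Cd3d and Gzmb among them, did not, none with more than 29 counts in any cortex library. Cd3g and Cd3e, chains of the T cell receptor complex, had log2 fold changes of 1.23 ± 0.37 (adjusted p = 0.231) and 1.26 ± 0.48 (adjusted p = 0.343). Their list summed to 6.08 to 21.8 CPM with the amiR and 3.95 to 17.2 CPM with vehicle, which overlapped widely.

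MHC class II molecules show antigen to helper T cells. All 7 MHC class II genes entered the test and all had positive log2 fold changes, 5 of them at an unadjusted p under 0.05, with a median of 0.90, but none was called. Their summed level was 31.6, 65.96, 73.1, 48.3, 32.4 and 26.5 CPM in amiR libraries 1 to 6, against 18.7, 35.1, 15.7, 19.6, 38.9 and 16.6 CPM in vehicle libraries 1 to 6. Vehicle libraries 2 and 5 thus lay above 3 of the amiR libraries. H2-Ab1, the beta chain of the class II molecule I-A, averaged 5.37 CPM with the amiR and 2.22 CPM with vehicle (log2 1.24 ± 0.41, adjusted p = 0.266). Cd74, the invariant chain that guides class II molecules, averaged 22.3 CPM with the amiR and 9.01 CPM with vehicle (log2 1.22 ± 0.44, adjusted p = 0.318). In spinal cord both were called, H2-Ab1 with 1.28 (adjusted p = 0.0191) and Cd74 with 1.41 (adjusted p = 0.00798), and the cortex minus spinal cord difference had adjusted p-values of 0.992 and 0.937. For MHC class I, 5 of 11 genes were higher at an unadjusted p under 0.05, none lower and none called, with a median of 0.39. Nlrc5, the transactivator of class I genes, averaged 3.07 CPM with the amiR and 1.51 CPM with vehicle (log2 0.93 ± 0.28, adjusted p = 0.237), and B2m, the light chain of class I molecules, 61.0 CPM with the amiR and 45.6 CPM with vehicle (log2 0.39 ± 0.13, adjusted p = 0.285).

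The interferon-inducible GTPases, large GTP-binding proteins that interferon gamma induces and that attack vacuoles of pathogens, numbered 15. All had positive log2 fold changes, 9 at an unadjusted p under 0.05, with a median of 0.48, and none was called. Igtp averaged 4.51 CPM with the amiR and 2.66 CPM with vehicle (log2 0.72 ± 0.21, adjusted p = 0.219), and Irgm1 13.2 CPM with the amiR and 10.1 CPM with vehicle (log2 0.37 ± 0.09, adjusted p = 0.159). Summed over the list, the amiR libraries held 53.3 to 135 CPM and the vehicle libraries 42.0 to 84.7 CPM. Because all members lay on the same side of 0, their start regions are shown for 2 members, from RefSeq (GRCm38.p6), 250 bases before to 50 bases after the start, on the strand of the gene. Igtp is at chr11:58199306-58199605 (plus strand) and Irgm1 at chr11:48871371-48871670 (minus strand). Capitals mark matches on either strand to GAAA, any 2 bases, GAAA, a core of the interferon-stimulated response element (ISRE), and to TTCNNNGAA, the interferon gamma-activated site, which is its own reverse complement.
Igtp: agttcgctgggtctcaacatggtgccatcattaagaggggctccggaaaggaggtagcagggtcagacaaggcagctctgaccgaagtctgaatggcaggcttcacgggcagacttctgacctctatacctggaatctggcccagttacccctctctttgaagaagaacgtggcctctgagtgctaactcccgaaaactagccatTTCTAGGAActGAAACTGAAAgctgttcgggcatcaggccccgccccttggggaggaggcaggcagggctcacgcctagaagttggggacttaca
Irgm1: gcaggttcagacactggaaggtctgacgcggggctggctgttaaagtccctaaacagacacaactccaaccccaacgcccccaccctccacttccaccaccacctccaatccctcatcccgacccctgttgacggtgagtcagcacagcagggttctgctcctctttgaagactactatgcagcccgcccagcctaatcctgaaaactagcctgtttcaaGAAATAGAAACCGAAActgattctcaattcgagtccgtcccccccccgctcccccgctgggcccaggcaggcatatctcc
Igtp holds 1 match to each motif, and Irgm1 holds 2 overlapping matches to the ISRE core. Among genes tested in cortex, that core occurred in 9 of the 9 GTPase start regions available and in 12 of 17 for the type I interferon list. It occurred in 3.0% of the 13369 start regions of all genes tested in cortex. It occurred in 2 of 9 for MHC class I, 0 of 4 for MHC class II and 1 of 10 for chemokines. TTCNNNGAA occurred in 6 of the 9 GTPase regions and 4 of the 17 of type I interferon, in 1 of 9, 0 of 4 and 0 of 10 for those 3 lists, and in 7.01% of the 13369. The Cxcl9 window held neither. A match is only a run of letters in that window.

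Of 26 genes typical of type I interferon, 2 were higher and none lower at an unadjusted p under 0.05, near the share of all genes (6.33% higher and 5.03% lower). Their median log2 fold change was 0.09. The 15 markers of resting microglia had none on either side of an unadjusted p of 0.05 and a median of −0.05. Complement had 4 of 11 genes higher and none lower at that level, C4b averaging 79.9 CPM with the amiR and 50.6 CPM with vehicle (log2 0.56 ± 0.24, adjusted p = 0.395).

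**Figure D2:**
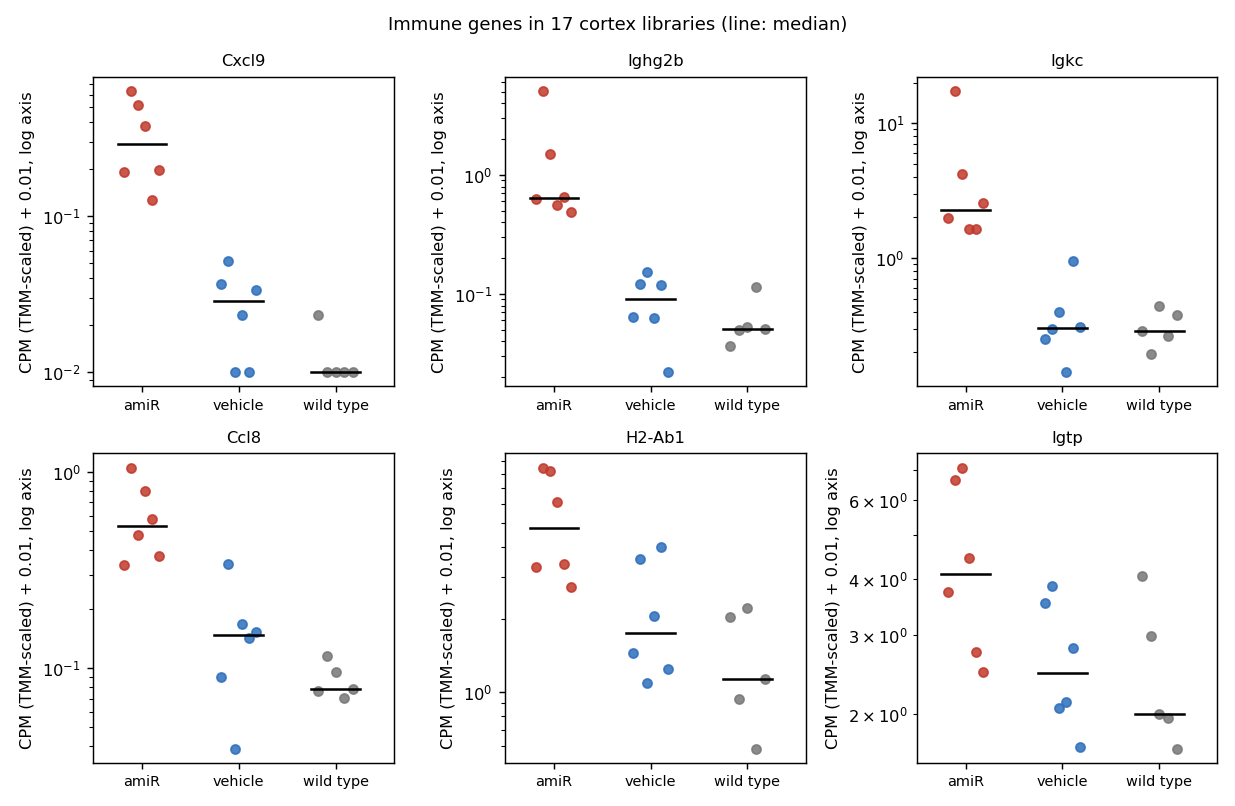
Levels of 6 immune genes in each cortex library (points), in CPM plus 0.01 on log axes, for amiR (6), vehicle (6) and wild type (5), with the median as a line. Cxcl9, Ighg2b and Igkc do not overlap between amiR and vehicle, while Ccl8, H2-Ab1 and Igtp do.

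Beyond the called genes, the rule for named genes took the smallest p-values among genes of at least 1 CPM, none of which passed the adjusted test. Scd1, the stearoyl-CoA desaturase that makes monounsaturated fatty acids, had 218, 176, 129, 154, 157 and 134 CPM in amiR libraries 1 to 6, against 279, 240, 249, 286, 294 and 358 CPM in vehicle libraries 1 to 6. The groups did not overlap and the log2 fold change was −0.81 ± 0.13, outside the threshold (adjusted p = 0.0518, or 0.00891 to 0.178 when 1 library was left out). Cers1, the ceramide synthase of neurons, averaged 36.4 CPM with the amiR and 45.9 CPM with vehicle (log2 −0.33 ± 0.07, adjusted p = 0.131). Fabp5, a fatty acid binding protein, averaged 60.3 CPM with the amiR and 48.5 CPM with vehicle (log2 0.31 ± 0.06, adjusted p = 0.0784). Of 24 genes of cholesterol synthesis, 5 were higher and none lower at an unadjusted p under 0.05 (6.33% and 5.03% over all genes), with a median of 0.08. Fdft1, which makes squalene, had a log2 fold change of 0.25 ± 0.07 (adjusted p = 0.194).

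S100a1, a calcium sensor, had 13.3 to 23.8 CPM over the amiR libraries, against 25.9 to 36.0 CPM over the vehicle libraries, with no overlap (log2 −0.68 ± 0.12, adjusted p = 0.0728). Paqr8, a membrane progestin receptor, averaged 77.6 CPM with the amiR and 111.5 CPM with vehicle (log2 −0.53 ± 0.09, adjusted p = 0.0611). Dennd1a, an activator of Rab35 in endocytosis, averaged 53.8 CPM with the amiR and 65.7 CPM with vehicle (log2 −0.29 ± 0.05, adjusted p = 0.095). These 3 genes and Cers1 were called lower in spinal cord, with log2 fold changes of −0.54 for S100a1, −0.34 for Paqr8, −0.39 for Dennd1a and −0.55 for Cers1 and adjusted p-values between 0.000431 and 0.0189. Gabrg1, a subunit of GABA-A receptors, averaged 22.9 CPM with the amiR and 32.3 CPM with vehicle (log2 −0.50 ± 0.10, adjusted p = 0.131), without a call in spinal cord (adjusted p = 0.731). Scd1 and Dbt were not called in spinal cord either, at log2 fold changes of 0.76 (adjusted p = 0.349) and −0.004 (adjusted p = 0.985), and Scd1 had 3657 CPM in amiR spinal cord library 2 beside 311 to 583 CPM in the other 5 and 472 to 575 CPM with vehicle.

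Among genes that were higher, Bdnf, the neurotrophin released by active neurons, had 28.0, 37.9, 26.3, 51.5, 35.4 and 28.9 CPM in amiR libraries 1 to 6, against 24.9, 21.4, 24.1, 20.4, 15.0 and 21.0 CPM in vehicle libraries 1 to 6. The groups did not overlap, and wild type, at 19.9 to 21.5 CPM, stayed within the vehicle range (log2 0.72 ± 0.15, adjusted p = 0.132). Mybpc1, a slow myosin binding protein of muscle, had 7.24 to 18.9 CPM over the amiR libraries and 4.18 to 6.46 CPM over the vehicle libraries (log2 1.02 ± 0.18, adjusted p = 0.0784). Aldoa, the aldolase of glycolysis, averaged 1141 CPM with the amiR and 940 CPM with vehicle (log2 0.28 ± 0.05, adjusted p = 0.0784). Ywhaz, the zeta form of the 14-3-3 adaptor proteins, averaged 1064 CPM with the amiR and 901 CPM with vehicle (log2 0.24 ± 0.05, adjusted p = 0.131). Atp6v1e1, a subunit of the vacuolar proton pump, averaged 240 CPM with the amiR and 202 CPM with vehicle (log2 0.25 ± 0.05, adjusted p = 0.132). Dyrk3, a kinase that dissolves stress granules, averaged 10.8 CPM with the amiR and 7.32 CPM with vehicle (log2 0.56 ± 0.12, adjusted p = 0.132). Klhl40 and Pcdhga10 completed the rule's list, at 0.67 ± 0.13 (adjusted p = 0.131) and 0.29 ± 0.06 (adjusted p = 0.11). Pcdhga10 shares its last exons with the other gamma protocadherins, so its counts are uncertain.

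Profilin works with a set of actin-binding proteins. Of 22 profilin and actin regulators, 13 were higher and 1 (Enah) was lower at an unadjusted p under 0.05, with a median log2 fold change of 0.15, and none was called. The list summed to 4808, 5116, 5290, 5146, 5311 and 4970 CPM in amiR libraries 1 to 6, against 4457, 4697, 4962, 4422, 4547 and 4586 CPM in vehicle libraries 1 to 6. The amiR libraries were the higher ones, but library 1 lay below vehicle library 3. Arpc2, a subunit of the Arp2/3 complex that nucleates branched actin, averaged 152 CPM with the amiR and 135 CPM with vehicle without overlap (log2 0.17 ± 0.04, adjusted p = 0.159), and Arpc3 of the same complex had 0.19 ± 0.04 (adjusted p = 0.159). Wasf1, an activator of that complex, had a log2 fold change of 0.24 (adjusted p = 0.22). Wild-type libraries held 4185 to 4393 CPM.

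Of 31 nuclear genes of oxidative phosphorylation, 9 were higher and none was lower at an unadjusted p under 0.05, with a median of 0.07. Uqcrc1 of complex III was 0.12 ± 0.04 (adjusted p = 0.257) and Atp5a1 of ATP synthase 0.13 ± 0.04 (adjusted p = 0.294). The 13 genes of the mitochondrial genome had none past that level and a median of −0.06. Among 21 ALS-linked genes of proteostasis and autophagy, 6 were higher and 1 was lower, Vcp, a segregase of ubiquitinated proteins, having 0.15 ± 0.05 (adjusted p = 0.229). Partners of ataxin-2 and mRNA decay factors numbered 20, of which 1 was higher and 3 were lower at that level, Atxn2 itself among the 3. The others were Dcp1b, a decapping cofactor (−0.15 ± 0.05, adjusted p = 0.266), and Tial1, a stress granule protein (−0.14 ± 0.05, adjusted p = 0.331). None of 15 ALS-linked RNA-binding protein genes reached an unadjusted p of 0.05, and of 14 genes of the small RNA machinery that process and load microRNAs, 1 did. Over all genes, 6.33% were higher and 5.03% lower at that level.

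In cortical glutamatergic neurons, 4 of 14 markers were higher and 1 was lower at an unadjusted p under 0.05, with a median of 0.24. Their sums overlapped widely, at 5386 to 6980 CPM with the amiR and 5113 to 7483 CPM with vehicle. Of 16 markers of layer 5 and corticospinal neurons, 2 were higher and none lower at that level, with a median of −0.03. Slc17a7, the vesicular glutamate transporter of cortex, had 1230 to 1352 CPM over the amiR libraries and 803 to 1161 CPM over the vehicle libraries, which did not overlap (log2 0.33 ± 0.08, adjusted p = 0.16). Slc17a6, its thalamic relative, averaged 22.9 CPM with the amiR and 40.9 CPM with vehicle (log2 −0.74 ± 0.34, adjusted p = 0.416). Vehicle libraries 5 and 6, those with the most thalamic transcript, had the lowest Slc17a7 levels after scaling, and without them 2 of the 14 glutamatergic markers were higher and 1 was lower, with a median of 0.18. What that tissue mixture contributes was not tested. Synaptic genes split, 5 of 20 higher and 3 lower at that level, beside 6.33% and 5.03% over all genes. Among them were Syn1, a synaptic vesicle protein, at 0.28 ± 0.08 (adjusted p = 0.194) and Cplx1, a regulator of vesicle fusion, at −0.38 ± 0.10 (adjusted p = 0.187). Immediate early genes, which neurons switch on within minutes of activity, had 5 of 20 higher and none lower with a median of 0.27, but their sum was 2800 CPM in amiR library 4 and 2030 CPM in amiR library 6, against 474 to 947 CPM in the other 4 amiR libraries and 812 to 1318 CPM in vehicle libraries. Without the 4 mice older than 36 weeks that median was −0.08, and in females only it was −0.495. Wild-type libraries held 1070 to 3086 CPM.

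All 13 endothelial markers had negative log2 fold changes, 4 at an unadjusted p under 0.05 and none called, with a median of −0.19. Flt1, a receptor for vascular endothelial growth factor, averaged 100.5 CPM with the amiR and 124 CPM with vehicle (log2 −0.31 ± 0.07, adjusted p = 0.153), and Abcb1a, the drug exporter of the blood-brain barrier, 38.0 CPM with the amiR and 45.7 CPM with vehicle (log2 −0.28 ± 0.08, adjusted p = 0.208). Summed, the endothelial list had 428 to 525 CPM with the amiR and 491 to 675 CPM with vehicle. The 11 markers of oligodendrocyte precursors were all lower with a median of −0.35, 2 of them at an unadjusted p under 0.05, and their sum was 284 to 396 CPM with the amiR and 360 to 615 CPM with vehicle. Of these 2, Tcf7l2 is also a thalamic marker, and Olig2, a lineage factor, had −0.28 ± 0.12 (adjusted p = 0.392). The 17 myelin genes were all lower with a median of −0.26, 1 at that level. Without vehicle libraries 5 and 6 the median was −0.20 for endothelium, −0.32 for precursors and −0.12 for myelin. Astrocyte markers were lower for 14 of 15, with 3 at an unadjusted p under 0.05, among them the potassium channel gene Kcnj10 (−0.28 ± 0.12, adjusted p = 0.372).

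The thalamic list itself had the lowest median, −0.79, with 6 of 10 markers lower at an unadjusted p under 0.05. Prkcd, a protein kinase C of thalamic relay neurons, had 9.45 to 17.98 CPM over the amiR libraries and 9.85 to 16.6 CPM over vehicle libraries 1 to 4, but 126 and 66.5 CPM in vehicle libraries 5 and 6. Without those libraries the thalamic median was −0.012 and none of the 10 reached that level, and 1 gene of the transcriptome, Atxn7l3b, remained called.

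**Figure D3:**
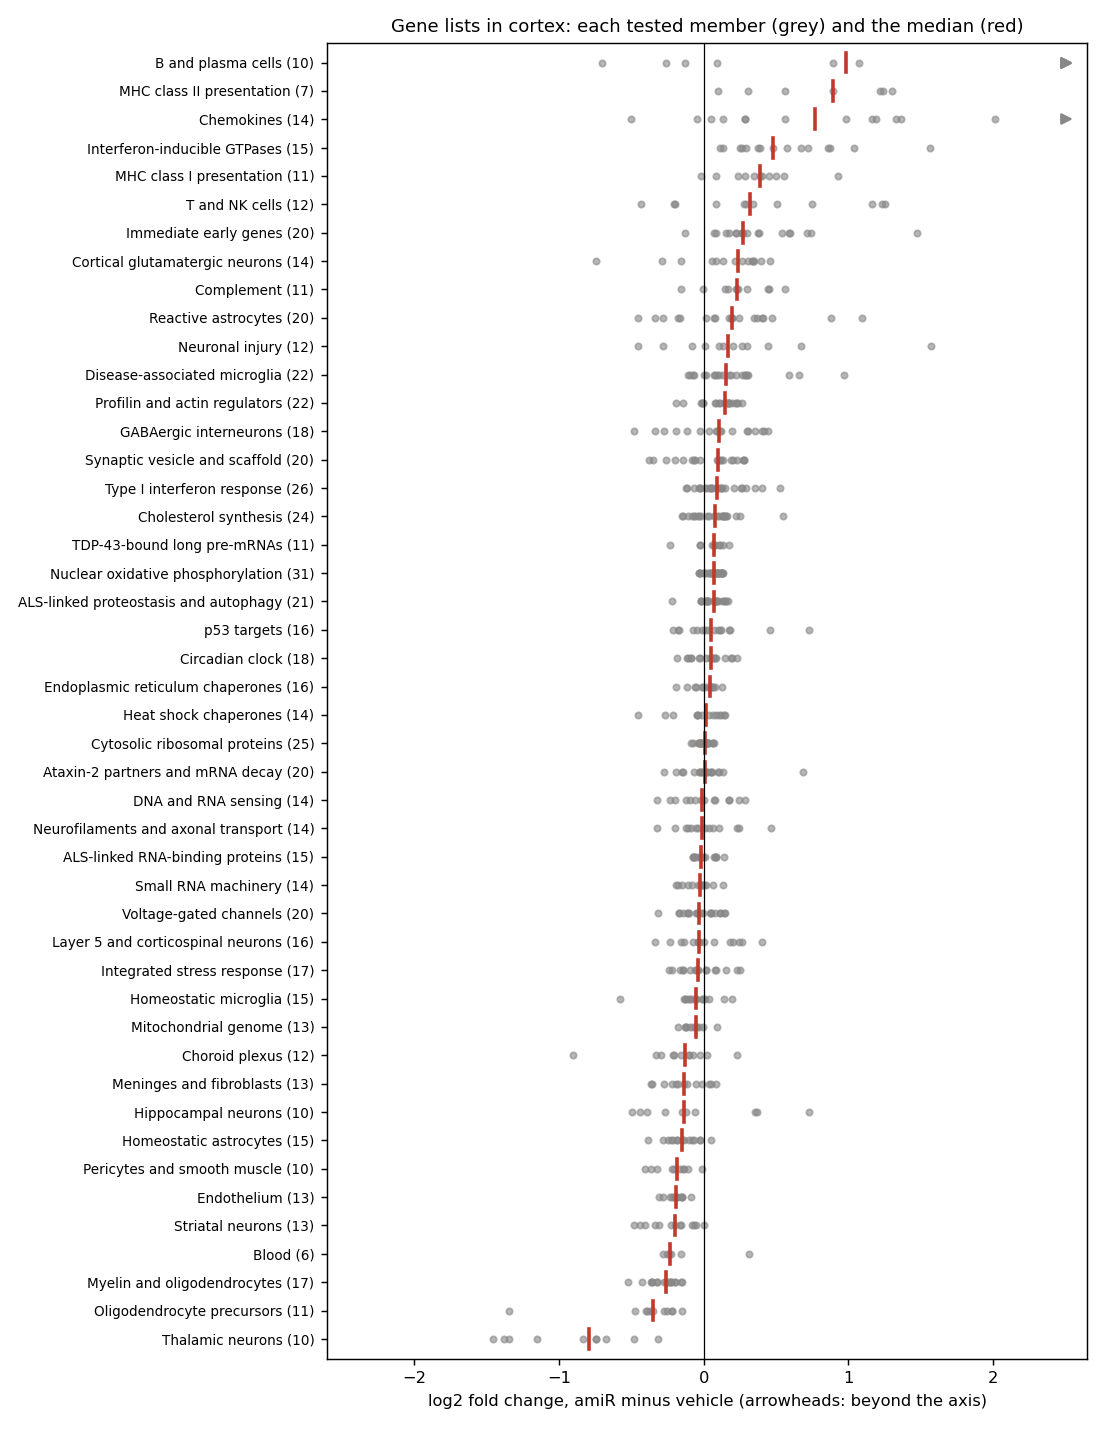
Log2 fold change of each tested member (grey points) of 46 gene lists in cortex, amiR minus vehicle, with the list median in red and the number tested in brackets, ordered by median (arrowheads mark members beyond the axis). B and plasma cells, MHC class II and chemokines stand at the top with medians of 0.98, 0.90 and 0.77, and thalamic neurons at the bottom with −0.79.

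**Figure D4:**
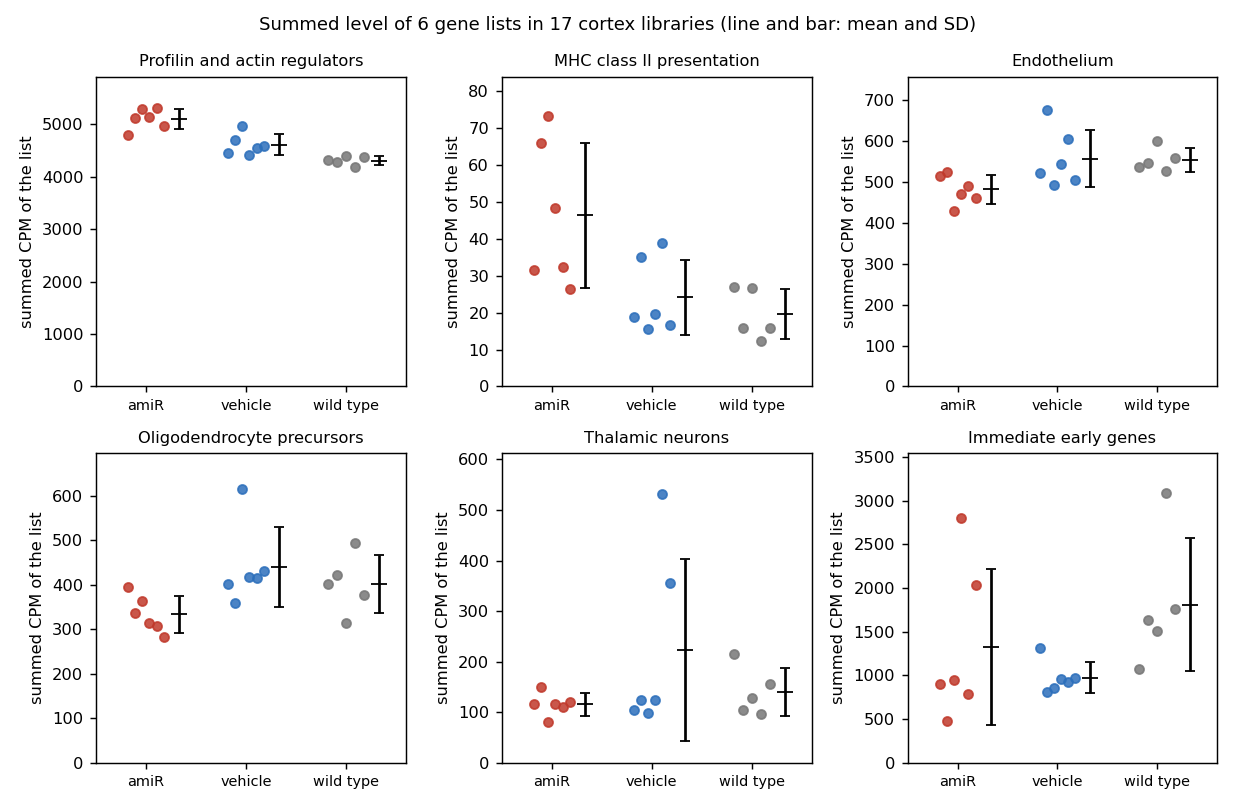
Summed CPM of 6 lists in each cortex library (points), for amiR (6), vehicle (6) and wild type (5), on linear axes with the mean and SD beside the points. The thalamic sum is high in 2 vehicle libraries, at 532 and 355 CPM, and the immediate early sum in 2 amiR libraries, at 2800 and 2030 CPM.

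Males and females were compared by an interaction in the same 12 libraries. Of 19610 genes, 0 were called (0%) by edgeR, with 752 at an unadjusted p under 0.05 and a smallest adjusted p of 0.992. The male effect minus the female effect was 0.05 ± 0.11 for Atxn7l3b and 0.10 ± 0.17 for Atxn2. Each sex had 3 libraries per arm, and both differences lie within their errors.

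Set against spinal cord, 37 of 21562 genes had a different treatment effect in cortex (0.172%), 27 with the cortex effect above and 10 with it below. Gpnmb, a glycoprotein of microglia and macrophages that have taken up lipid or debris, is an example. In spinal cord it had 27.0 ± 28.1 CPM with the amiR and 183 ± 18.2 CPM with vehicle, a log2 fold change of −2.97 (adjusted p = 0.011). In cortex it had 1.87 CPM with the amiR and 0.837 CPM with vehicle (0.97 ± 0.45, adjusted p = 0.425), and the difference between the tissues was 3.99 ± 0.79 (adjusted p = 0.0428). The lysosomal genes Ctsb, Lipa and Psap were among the 37 too, with cortex log2 fold changes of 0.09, 0.08 and 0.12 beside spinal cord values of −0.55, −0.41 and −0.18, and these were named after their values were seen. Bdnf also differed, with 0.72 in cortex and −0.21 in spinal cord (difference 0.93 ± 0.18, adjusted p = 0.0428). The count was 7 without those 4 spinal cord libraries, and 1 without the mice older than 36 weeks.

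The labels do not say whether spinal cords and cortices came from the same mice. The tissue tests took each library as a separate sample, so any pairing by mouse was not modelled. Of 588 genes that rose in spinal cord and were tested in cortex, 79.1% had a positive cortex log2 fold change, with a median of 0.09. Of 427 that fell there, 34.4% were positive and the median was −0.06, beside 47.4% and −0.009 over all cortex genes. In muscle, 190 of 16949 genes were called for amiR against vehicle (1.12%).

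**Figure D5:**
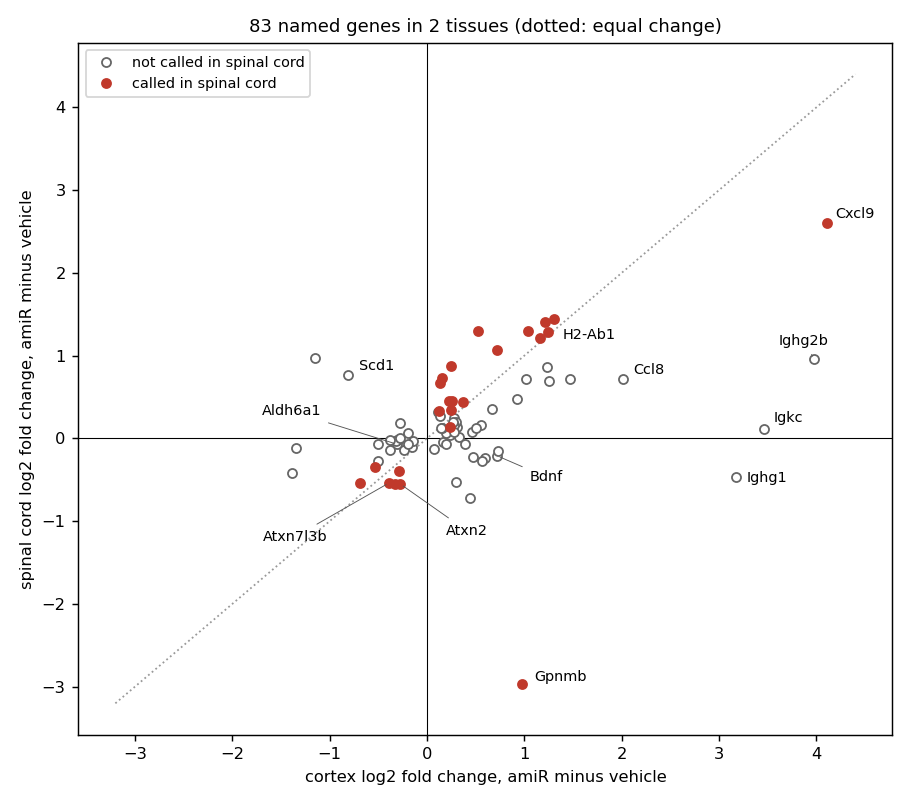
Log2 fold change, amiR minus vehicle, of 83 named genes in cortex (horizontal) and spinal cord (vertical). Filled points mark the 24 genes called in spinal cord, and the dotted line marks equal change. Cxcl9 lies far out in both tissues, immunoglobulin genes in cortex, and Gpnmb low in spinal cord.

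Wild-type cortex places these levels. Of the 20278 genes, 228 were called for amiR transgenic against wild type (1.12%) and 5 for vehicle transgenic against wild type (0.0247%), namely Prnp, Thy1, Lamr1-ps1, Nbdy and Mnat1. Both counts share the wild-type libraries, and the first shares the amiR libraries with the main comparison. Atxn7l3b was −0.37 against wild type with the amiR (adjusted p = 0.00172) and 0.02 with vehicle, Aldh6a1 −0.33 (adjusted p = 0.00551) and −0.02, and Scd1 −0.89 (adjusted p = 0.0107) and −0.09. H2-Ab1 was 1.92 against wild type with the amiR (adjusted p = 0.0508) and 0.68 with vehicle (adjusted p = 0.995), and C4b 1.18 (adjusted p = 0.0478) and 0.61 (adjusted p = 0.995).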

How the data were processed

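Poly(A) RNA of mouse cortex, spinal cord and skeletal muscle was sequenced in paired ends on a NovaSeq instrument after Qiagen miRNeasy isolation and Kapa mRNA HyperPrep libraries, per the labels' protocols. Values in the deposited file are expected counts from RSEM without scaling. Per the submitters' processing notes, RSEM 1.3.2, STAR 2.7.2d, bcl2fastq 2.20 and DESeq2 1.34.0 were used on GRCh38 and GRCm38 (annotation release not given in the sources used here). Of 55510 lines, 55401 are mouse genes (55141 with a symbol in GENCODE M21), 1 is human PFN1, 16 are vector elements and 92 are ERCC spike-ins. Lines other than mouse genes took 0.167% of the counts or less.

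Counts were rounded to whole numbers, and the 17 cortex libraries were fitted together with edgeR 4.0.16 (R 4.3.3) on mouse genes: filterByExpr, TMM scaling, quasi-likelihood F tests with terms for sex and arm, and Benjamini-Hochberg adjustment over all genes tested, with a threshold of 0.05. Spinal cord and muscle were fitted apart in the same way, and tissue and sex differences as interactions. Fold changes are amiR minus vehicle on the log2 scale with standard errors. Exact two-sided permutation tests used Python 3.11. The model was tested on simulated data. Within an arm no 2 cortex libraries agreed within counting error (chi-square per gene at least 22.65).

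The members, gene lists and tests were chosen with earlier results of these data known. Named genes are Atxn2, Pfn1, human PFN1 and the vector, then, in each direction, up to 10 called genes of at least 1 CPM by fold change, filled by smallest p, and up to 3 members of each list at an unadjusted p under 0.05. Cxcl10, Cd79a and Slc17a6 were named after their values were seen. Alternatives covered scaling, filters, DESeq2 1.42.0, limma-voom 3.58.1, covariates, a replicate block, sex and age subsets and leaving out each library.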

Additional observations from a re-analysis of the deposited data

Results flagged for a closer look

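In 11 of 170 arms of 6 cortex libraries examined, the extreme library stood apart from the other 5 by more than Dixon's criterion of 0.625, and chance gives about 1 in 20. Of these, amiR library 2 was highest for Ighg2b (5.05 CPM), Ighg1 (2.19 CPM), Igkc (17.2 CPM) and Mybpc1 (18.9 CPM). AmiR library 4 was highest for Fosb (192 CPM), Dusp5 (24.5 CPM) and Cdkn1a (25.9 CPM). Among vehicle libraries, library 3 was highest for Aldoa (1044 CPM) and lowest for Fosb (10.4 CPM), library 5 was highest for Igkc (0.945 CPM) and library 6 for Olig2 (28.8 CPM).

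By interaction tests, the treatment effect in cortex exceeded that in spinal cord for Bdnf (0.93, adjusted p = 0.0428) and Gpnmb (3.99, adjusted p = 0.0428). Against muscle, the cortex effect was lower for Atxn7l3b (−0.29), Aldh6a1 (−0.44), S100a1 (−0.74), Dennd1a (−0.44) and Cers1 (−0.82), and higher for Cxcl9 (3.22), Ighg2b (3.11), Igkc (3.37), Ccl8 (3.62), C1qb (1.17), Mybpc1 (1.06), Klhl40 (0.82), Ywhaz (0.44) and Bdnf (1.27), with adjusted p-values of 0.00847 to 0.0428. These are differences of log2 fold changes, and the level of a gene can differ widely between cortex and muscle. The genes examined here were mostly named for a small p in the cortex comparison, which is itself part of each difference. A difference in the direction of the cortex change was thus favoured in advance, and Cxcl9 and Ighg2b also entered through the amiR libraries.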

How the results depend on the processing

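The 4 calls of the cortex comparison became 9 with no filter, 2 among genes of 1 CPM or more, 364 with DESeq2, 0 with the 12 transgenic libraries only, 10 with no sex term, 7 with sex and RIN, 10 with sex and age, and 0 without mice older than 36 weeks, in females only and in males only. A replicate block, fitted on the same 12 libraries, gave 1 call, Htr2c, and Atxn7l3b had −0.39 (adjusted p = 0.0735), against −0.38 (adjusted p = 0.185) without the block. Like-numbered libraries deviated from their group means with r of 0.269, 0.143, 0.488, 0.162, 0.34 and −0.002, and 4 of 6 amiR libraries matched best with their own number (1, 3, 4 and 5); same-numbered libraries also share sex. Library 6 fell short, so not every pair passed 0.1 and the numbers were not taken as pairs. Without vehicle libraries 5 and 6, an alternative chosen after seeing the data, 1 call was left. Leaving out 1 library gave 1 to 80 calls, the most without vehicle library 3. At most 2 calls were left without vehicle library 4 or 6 or without amiR library 3, 4, 5 or 6. Fewer libraries enter the subset fits, and the cause of the other shifts was not tested. Atxn7l3b kept its direction under all 27 alternatives (−0.42 to −0.36) and its call in every fit that left out 1 library. Aldh6a1 lost its call in 12 alternatives and Ighg2b in 15, both with the same direction. Cxcl9 had an adjusted p in only 16 of the 27 alternatives, at 3.81 to 4.39. It lost its call in females only and without vehicle libraries 5 and 6. Atxn2 was −0.35 to −0.22 throughout, and passed with DESeq2 only (−0.28, adjusted p = 0.0397). For sex, leaving out 1 library gave 0 to 1 calls. The 37 genes that differed between cortex and spinal cord became 72 among genes of 1 CPM or more, 7 without the 4 spinal cord libraries with conflicting names and 1 without mice older than 36 weeks. The vector to Atxn2 r was 0.25 to 0.766 over its alternatives. It was −0.568 in the main setting without the 2 libraries farthest from the median WPRE level. Prkcd reversed to 0.066 in females only and to 0.125 without vehicle libraries 5 and 6. Medians of the MHC class II, GTPase, actin, endothelial, precursor and myelin lists kept their sign under every alternative run. So did those of chemokines (0.05 to 1.12) and B and plasma cells (0.13 to 1.81), lists with members that entered through the amiR libraries. The thalamic median kept its sign too (−1.475 to −0.012, the latter without vehicle libraries 5 and 6). All alternatives reuse the same libraries, so a kept sign is no separate support. Medians changed sign in 1 alternative for type I interferon, 2 for immediate early genes and 3 for synaptic genes.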
